A study of Mus musculus with 11 samples.

Results

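The 10 genes described here are Trp53, which encodes the tumour suppressor p53, and 9 of its direct targets, Mdm2, Cdkn1a, Ccng1, Sesn2, Gadd45a, Zmat3, Phlda3, Trp53inp1 and Perp. They were taken by gene symbol from the deposited count files, where they are 10 of 24490 genes. The libraries hold mRNA of primary ovarian granulosa cells, the somatic cells that surround and nourish the oocyte, from mice of the RjOrl:SWISS background. All cells were transfected by lipofection with 30 pmol of siRNA, the mix was replaced after 5 h, and RNA was extracted 30 h after transfection. The groups were Akt1 siRNA pools 1, 2, 3 and 4, with 2 libraries each, and a nontargeting scrambled siRNA, called scramble, with 3 libraries. The pools were built from 4 Akt1 siRNAs, taken 3 at a time, so that siRNA 9 was missing from pool 1, siRNA 7 from pool 2, siRNA 8 from pool 3 and siRNA 6 from pool 4. This makeup rests on matching the pool numbers of the sample titles to those of the protocol. Every group received siRNA and transfection reagent, and no untransfected cells were among the 11 libraries.

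p53 is a transcription factor that is kept scarce by the ubiquitin ligase Mdm2 and is stabilised when DNA is damaged, growth signals are aberrant or ribosome assembly fails. It then activates genes that halt the cell cycle, repair DNA, limit growth signalling or start cell death, and Mdm2 is itself one of them, which closes a feedback loop. Akt kinases are known to phosphorylate Mdm2 and to favour its entry into the nucleus, and they also phosphorylate p21, the product of Cdkn1a. p53 is regulated mainly as a protein, which mRNA counts do not measure.

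Libraries held 23851293 to 32643158 reads in genes, and all 10 genes passed the low-count filter in every comparison given here. Akt1, the target of the siRNAs, was at 52.7 to 81.7 CPM (reads of the gene per 1000000 reads in genes) in the 8 pool libraries, against 399 to 529 CPM in the 3 scramble libraries (log2 −2.87 ± 0.13 SE, edgeR adjusted p = 4.41e-07). Scramble replicate 1 stood apart. Its median correlation with the other libraries was 0.948, against 0.9896 or more for each of the rest, and it was the most distant library from the median at 67.3% of 14144 genes. Results are therefore given for all 11 libraries and for the 10 libraries left without it, called the 10-library fits. Whether replicates came from separate cultures is not in the labels, and p-values measure the spread between these libraries, which may be technical. Of 12 granulosa markers, 10 were above 1 CPM in every library, Inha and Foxl2 among them. Fshr, the receptor for follicle-stimulating hormone, and Amh stayed at or below 0.367 and 0.827 CPM. Immune markers summed to 5.45 to 10.8 CPM over all libraries, with Cd68 highest and Ptprc and Adgre1 at no more than 0.167 CPM, and oocyte markers to 2.89 to 8.06 CPM, with Ddx4 highest and Zp3 at no more than 0.0919 CPM. Endothelial markers summed to 13.2 to 19.3 CPM. Surface epithelium markers, with Krt18 and Krt8 highest, summed to 327 to 374 CPM in the pools, against 324 and 337 CPM in scramble replicates 2 and 3 and 616 CPM in scramble replicate 1. Theca and stroma markers, with Col1a1 and Star highest, summed to 2037 to 2385 CPM in the pools. They summed to 2370.0 and 2423 CPM in scramble replicates 2 and 3 and 1876 CPM in scramble replicate 1. Of these 10 markers, 7 were above 1 CPM in every library, and Cyp17a1, Insl3 and Gli1 stayed at or below 0.460, 0.0669 and 0.515 CPM.

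Per kilobase of the longest coding transcript, the level of these genes spanned a wide range, and the order was close to the same in all libraries. Ccng1 was highest at 203 ± 18.4 CPM per kilobase (SD, n = 11), followed by Cdkn1a at 148 ± 26.6 and Trp53inp1 at 86.1 ± 15.8. Mdm2 came next at 70.4 ± 10.0, then Trp53 at 47.1 ± 4.09, Phlda3 at 45.7 ± 16.1 and Gadd45a at 40.1 ± 7.62. Zmat3, Sesn2 and Perp were lowest, at 26.8 ± 4.53, 9.79 ± 3.89 and 5.41 ± 1.16 CPM per kilobase. Neighbouring genes kept their order in all 11 libraries at 5 of the 9 steps. The exceptions were Ccng1 over Cdkn1a and Trp53 over Phlda3, which held in 10 of 11, and Trp53inp1 over Mdm2 and Phlda3 over Gadd45a, which held in 8 of 11. The levels of those pairs lay within their spread of each other, apart from Ccng1 and Cdkn1a. Both pairs that held in 10 of 11 crossed in scramble replicate 1 alone, the library with the highest Phlda3.

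Scramble replicate 1 was the farthest library for 8 of the 10 genes, all but Mdm2 and Sesn2, and its distance followed transcript length. Against the mean of scramble replicates 2 and 3 on the log2 CPM scale, the short transcripts of Phlda3 (1435 bases), Gadd45a (1223 bases) and Perp (1952 bases) were higher in it by 1.19, 0.69 and 0.67. Cdkn1a (2080 bases) and Trp53 (1867 bases) were higher by 0.36 and 0.27. Mdm2 (3145 bases), Ccng1 (3512 bases), Zmat3 (7797 bases) and Sesn2 (3475 bases) gave −0.23, −0.55, −0.61 and −0.79, and Trp53inp1 (5404 bases) gave −1.18. Over all genes with a known length, the median of this difference was 0.83 in the shortest of 5 length classes and −0.94 in the longest. The sign of the difference split the members by length. Mdm2, Ccng1 and Sesn2 lay below the median of their class, which was −0.02. Phlda3, Perp and Zmat3 lay above the medians of their classes, 0.83, 0.35 and −0.94. Trp53, Gadd45a and Trp53inp1 lay below theirs, and Cdkn1a was close to its own, 0.35.

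**Figure D1:**
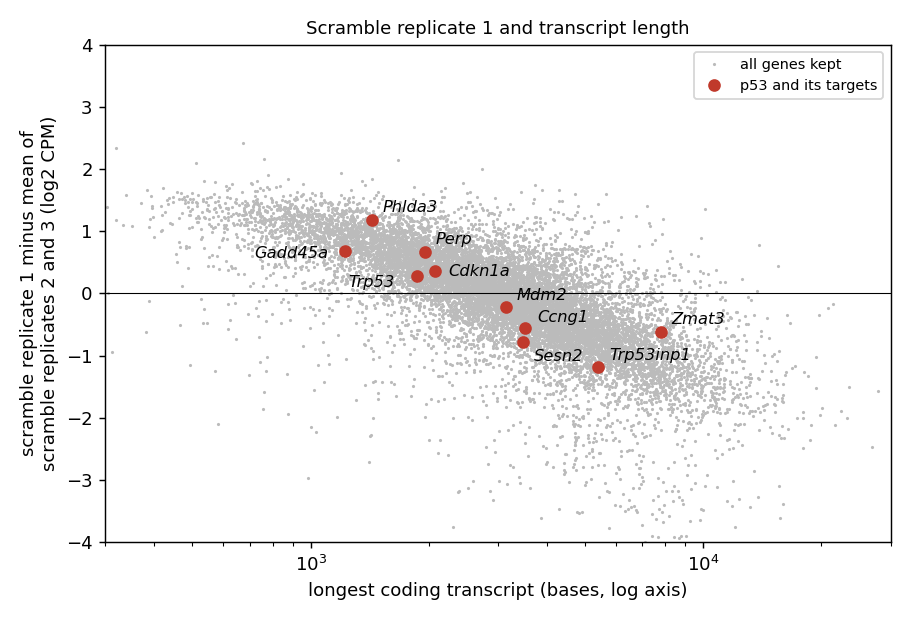
Difference between scramble replicate 1 and the mean of scramble replicates 2 and 3 (log2 CPM) against the length of the longest coding transcript (bases, log axis), with all genes kept in grey and p53 and its targets in red. The 5 members with transcripts of 2080 bases or fewer lie above 0 and the 5 with transcripts of 3145 bases or more lie below 0.

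Sequence upstream of the start site is shown for the 3 targets whose mRNA differed from scramble in pool 3 in the fit of all libraries. It is shown because a p53 response element is the feature that direct targets share. RefSeq promoter windows (GRCm38.p6, 250 bases before to 50 after the start) were matched for 7 of the 10 genes, with 8 windows among them. The p53 half-site consensus, which reads the same way on both strands, was found in the window of 5 of them, Trp53, Mdm2, Cdkn1a, Ccng1 and Gadd45a, and in 8.36% of all 32851 windows. A pair of half-sites no more than 13 bases apart was found for Cdkn1a alone, and in 0.0731% of all windows. Only exact matches to the consensus were counted. The bases directly after GAACATGTCT in the Cdkn1a window, tgacatgttc, miss the consensus at their first letter. Which of these bases p53 binds was not tested. The Cdkn1a half-sites begin 73 and 51 bases before the start in 1 of its 2 windows, with 12 bases between them. Its other window (chr17:29093519-29093818) belongs to a start farther downstream and held no half-site. Relative to that second start, the 2 half-sites lie far upstream, beyond the 250 bases searched. The single Mdm2 half-site begins 186 bases before the start. The windows of Sesn2 and Phlda3 held no match to these letters, and nothing follows from that about binding there. The 250 upstream bases are given 5′ to 3′ on the gene's strand, with half-sites in capitals, for Mdm2 (chr10:117710759-117711008, minus strand), Cdkn1a (chr17:29090729-29090978, plus strand) and Sesn2 (chr4:132510457-132510706, minus strand).
Mdm2 upstream: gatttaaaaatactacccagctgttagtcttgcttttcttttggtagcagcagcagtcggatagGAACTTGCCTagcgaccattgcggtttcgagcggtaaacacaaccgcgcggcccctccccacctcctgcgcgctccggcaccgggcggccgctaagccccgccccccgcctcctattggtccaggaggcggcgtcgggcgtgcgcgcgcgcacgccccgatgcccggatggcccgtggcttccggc
Cdkn1a upstream: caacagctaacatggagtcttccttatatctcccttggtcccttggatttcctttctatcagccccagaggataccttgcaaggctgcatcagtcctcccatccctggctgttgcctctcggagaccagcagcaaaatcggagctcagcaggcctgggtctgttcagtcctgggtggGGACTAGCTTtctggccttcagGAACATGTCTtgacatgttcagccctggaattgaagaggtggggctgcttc
Sesn2 upstream: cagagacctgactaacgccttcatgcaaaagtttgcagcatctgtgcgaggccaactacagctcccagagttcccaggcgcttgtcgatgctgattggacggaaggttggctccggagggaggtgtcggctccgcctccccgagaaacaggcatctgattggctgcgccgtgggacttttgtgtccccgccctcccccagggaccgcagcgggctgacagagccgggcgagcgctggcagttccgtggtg

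Sesn2 was the member that differed most between pools. It encodes sestrin 2, a stress-induced protein that restrains mTORC1 when leucine is scarce, and lies on the minus strand at chr4:132492032-132510501 (mm10). Its level was 22.4 and 25.4 CPM in pool 1, 47.3 and 47.4 in pool 2, 22.9 and 24.5 in pool 3 and 21.8 and 23.1 in pool 4, against 31.9, 54.9 and 52.5 CPM in scramble replicates 1, 2 and 3. All libraries of pools 1, 3 and 4 were below every scramble library, and pool 2 lay between scramble replicate 1 and the other scramble libraries. In bulk RNA, fewer cells of a type and less RNA per cell cannot be told apart.

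Sesn2 fell in pool 3 and in pool 4 relative to scramble, by 1.04 ± 0.22 and 1.09 ± 0.22 on the log2 scale (SE; edgeR adjusted p = 0.0226 and 0.0452). Pool 1 gave log2 −1.01 ± 0.22 (adjusted p = 0.0657) and pool 2 gave 0.03 ± 0.22 (adjusted p = 0.952, same test). The falls were larger in the 10-library fit, −1.24 in pool 1, −1.26 in pool 3 and −1.32 in pool 4, with SE of at most 0.07 and every edgeR adjusted p at or under 4.41e-12. Mean levels in pools 1, 3 and 4 were then 44.6%, 44.2% and 41.9% of those in scramble replicates 2 and 3, and pool 2 stood at 88.3% (log2 −0.20 ± 0.06, edgeR adjusted p = 0.0629). With all libraries, the call in pool 4 was lost without any 1 library other than scramble replicate 1 (edgeR adjusted p 0.0798 to 0.402), and the call in pool 3 without scramble replicate 2 or either pool 3 library (0.0533 to 0.190). The 4 comparisons share their scramble libraries, so they are not independent of one another.

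Comparing pools with each other sets no value against scramble, although the scramble libraries enter the estimate of spread. Sesn2 was higher in pool 2 than in the mean of the other pools by 1.07 ± 0.18 on the log2 scale, a 2.11-fold difference (edgeR adjusted p = 0.0135, 2 of 2 libraries above all 6 others). It was the 1 member called in that comparison, which called 5.25% of all genes. The value was 1.07 ± 0.05 without scramble replicate 1 (adjusted p = 2.57e-13, edgeR). With scramble replicate 1 kept, the call was lost on leaving out pool 1 replicate 1, pool 3 replicate 1 or either pool 2 library, at edgeR adjusted p of 0.0513, 0.0519, 0.149 and 0.158, while log2 stayed between 1.05 and 1.11. Outside scramble replicate 1, the summed level of the 12 granulosa markers was ordered the same way as Sesn2, at 2600.3 to 3534 CPM in pools 1, 3 and 4 and 3918 to 4286 CPM in pool 2, against 4416 to 4548 CPM in scramble replicates 2 and 3 and 5089 CPM in scramble replicate 1. Inha and Gja1 were the most abundant of the 12 markers, with means of 1962 and 918 CPM over all libraries, so the sum rests largely on them. The part of this sum in the Sesn2 result was not tested.

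**Figure D2:**
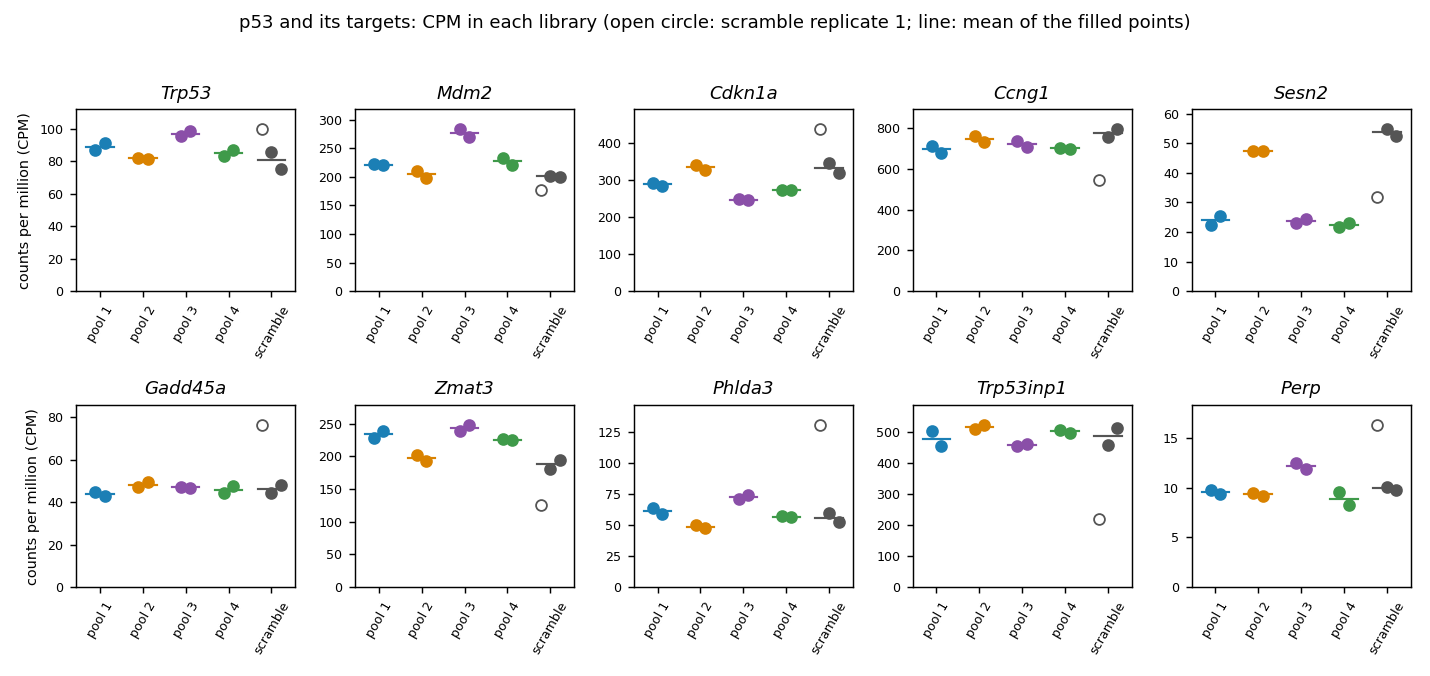
CPM of p53 and 9 targets in each library, with pools 1 to 4 left of scramble, each axis starting at 0, an open circle for scramble replicate 1 and a line at the mean of the filled points. Sesn2 is at 21.8 to 25.4 CPM in pools 1, 3 and 4 and at 47.3 and 47.4 CPM in pool 2, and the open circle is the point farthest from the rest for 8 of the 10 genes.

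In pool 2 against the other pools, 5 of 38 further p53 targets were called with all libraries, where 5.25% of all genes were called. Sesn1 and Ei24 were higher, and Btg2, Ckap2 and Ccnd1, named after their values were seen, were lower (log2 −0.34, −0.39 and −0.37). Sesn1 encodes sestrin 1 and was at 13.3 to 15.2 CPM in pools 1, 3 and 4 and at 20.9 and 22.0 in pool 2, against 18.3, 20.9 and 20.3 CPM in scramble replicates 1, 2 and 3. It was higher in pool 2 than in the other pools (log2 0.61 ± 0.09 SE, edgeR adjusted p = 0.00889) and lower in pool 3 than in scramble (log2 −0.55 ± 0.11, adjusted p = 0.0171). Pools 1 and 4 did not pass against scramble (−0.47 ± 0.11 each, edgeR adjusted p = 0.0776 and 0.0714). Sesn3, the remaining sestrin gene, named here after its values were seen, was at 26.6 to 30.3 CPM in pools 1, 3 and 4 and at 25.5 and 26.9 in pool 2, against 6.59, 27.1 and 27.5 CPM in scramble replicates 1, 2 and 3. Outside scramble replicate 1 its groups overlapped, and it passed no test (pool 2 against the other pools, log2 −0.06 ± 0.44, edgeR adjusted p = 0.989).

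Ei24 encodes a membrane protein of the endoplasmic reticulum and was named for its induction by etoposide. It was at 38.3 and 35.4 CPM in pool 1, 140.4 and 135 in pool 2, 32.3 and 32.2 in pool 3 and 34.3 and 36.3 in pool 4, against 148, 126 and 127 CPM in scramble replicates 1, 2 and 3. The 6 libraries of pools 1, 3 and 4 were far below all others, and pool 2 lay within the scramble range. Ei24 fell in pools 1, 3 and 4 relative to scramble, with log2 fold changes of −1.91, −2.12 and −1.97 (SE 0.10 each, edgeR adjusted p = 0.000248, 0.000116 and 0.000203). In pool 2 it gave log2 0.04 ± 0.09 (adjusted p = 0.797), and pool 2 exceeded the other pools by 2.04 ± 0.08 (adjusted p = 3.18e-05, edgeR). siRNA 7 was the 1 siRNA that pools 1, 3 and 4 shared and pool 2 lacked. The granulosa marker sum was also lower in every library of pools 1, 3 and 4 than in pool 2, and its part in the Sesn1 and Ei24 results was not tested.

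**Figure D3:**
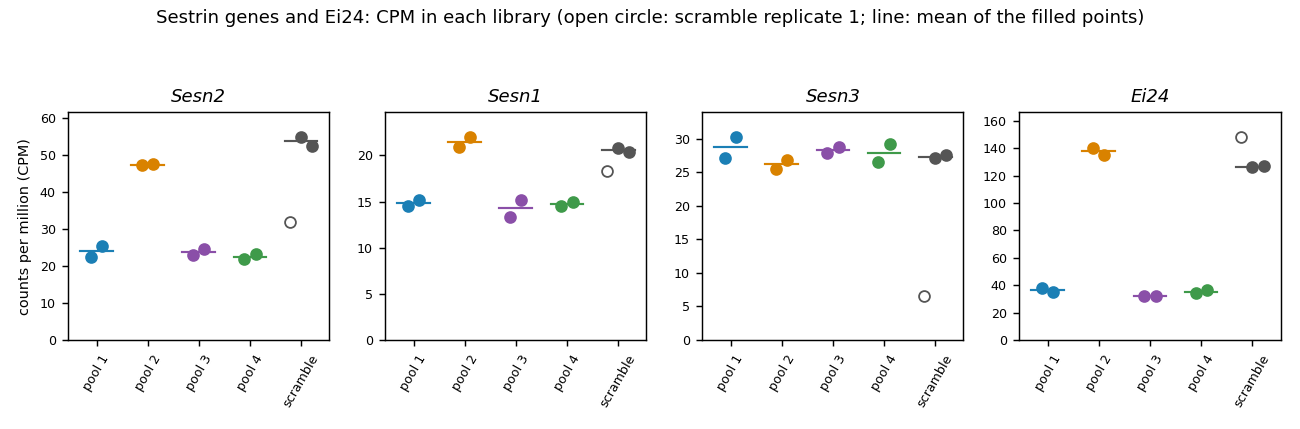
CPM of Sesn2, Sesn1, Sesn3 and Ei24 in each library, with pools 1 to 4 left of scramble, an open circle for scramble replicate 1 and a line at the mean of the filled points. Sesn2, Sesn1 and Ei24 are low in pools 1, 3 and 4 and not in pool 2, with Ei24 at 32.2 to 38.3 CPM against 135 and 140.4 CPM, and Sesn3 shows no such step.

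Trp53 itself (chr11:69580359-69591873, plus strand) varied little. It was counted at 86.9 and 91.3 CPM in pool 1, 82.3 and 81.5 in pool 2, 95.5 and 98.5 in pool 3 and 83.3 and 86.8 in pool 4, against 100.02, 85.7 and 75.5 CPM in scramble replicates 1, 2 and 3. The scramble libraries alone spanned every pool value. With all pools taken as 1 group, log2 was −0.02 ± 0.09 (SE, edgeR adjusted p = 0.869), and it was 0.07 ± 0.07 without scramble replicate 1 (adjusted p = 0.523), so its sign was not stable. Trp53 in pool 3 passed the test against scramble once replicate 1 was left out (log2 0.18 ± 0.05, edgeR adjusted p = 0.00809), and against the mean of the other pools in the same fit (0.14 ± 0.04, adjusted p = 0.00841). Both pool 1 libraries also lay above scramble replicates 2 and 3, without passing (log2 0.07 ± 0.05, edgeR adjusted p = 0.310).

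Mdm2, the ligase that marks p53 for degradation and a target of p53 (chr10:117688875-117710758, minus strand), rose in pool 3. Its level was 222 and 220.5 CPM in pool 1, 211 and 199 in pool 2, 284 and 270.0 in pool 3 and 233 and 221 in pool 4, against 176, 201 and 199.8 CPM in scramble. Both pool 3 libraries exceeded all others, and pools 1 and 4 also lay above every scramble library. The pool 3 difference was log2 0.46 ± 0.10 (edgeR adjusted p = 0.0227), and 0.38 ± 0.04 without scramble replicate 1 (adjusted p = 3.81e-07). With all libraries it lost the call when any 1 of the 8 pool libraries was left out (edgeR adjusted p 0.0533 to 0.203, log2 0.42 to 0.49). Relative to the other pools, Mdm2 in pool 3 was higher by 0.31 ± 0.03 without scramble replicate 1 (adjusted p = 4.29e-07, edgeR), and with all libraries the value was 0.32 ± 0.09 (adjusted p = 0.119).

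Cdkn1a, Ccng1 and Gadd45a act on the cell cycle. Cdkn1a (chr17:29090976-29100727, plus strand) encodes p21, which inhibits cyclin-dependent kinases, and moved the other way from Mdm2 in pool 3. It was at 293 and 284 CPM in pool 1, 341 and 327 in pool 2, 248 and 246 in pool 3 and 274 and 272 in pool 4, against 438, 346 and 317 CPM in scramble replicates 1, 2 and 3. Pools 1, 3 and 4 lay below every scramble library, with pool 3 lowest, and pool 2 overlapped scramble.

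Cdkn1a fell in pool 3 relative to scramble (log2 −0.64 ± 0.13 SE, edgeR adjusted p = 0.0165). It did not pass in pool 1 (−0.40 ± 0.13, adjusted p = 0.183), pool 2 (−0.13 ± 0.13, adjusted p = 0.615) or pool 4 (−0.47 ± 0.13, adjusted p = 0.1099). In the 10-library fit, pools 1, 3 and 4 gave −0.27, −0.52 and −0.34, with SE 0.04 and edgeR adjusted p no higher than 5.86e-05, and pool 2 gave −0.01 ± 0.04 (adjusted p = 0.968). Pool 2 exceeded the other pools by 0.37 ± 0.03 in that fit (adjusted p = 1.78e-08) and by 0.37 ± 0.11 with all libraries (adjusted p = 0.107, edgeR). With all libraries the pool 3 call was lost without either pool 3 library (edgeR adjusted p 0.137 and 0.145). Exons of Cdkn1a and of Gadd45a overlap an annotated gene on the opposite strand, and how strand entered the counting is not given in the sources used here.

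Ccng1 (chr11:40748552-40755311, minus strand) encodes cyclin G1, which brings a phosphatase to Mdm2. It was at 714 and 679.9 CPM in pool 1, 762 and 735 in pool 2, 737 and 709 in pool 3 and 706 and 699 in pool 4, against 547, 757 and 798 CPM in scramble. Scramble replicate 1 was below all other libraries, and the remaining values lay close together. With all libraries Ccng1 passed no comparison (all pools, log2 −0.01 ± 0.11, edgeR adjusted p = 0.958). In the 10-library fit it was lower in pools 1, 3 and 4 than in scramble, with log2 of −0.23, −0.20 and −0.21 and edgeR adjusted p no higher than 0.000702, and pool 2 gave −0.07 ± 0.04 (adjusted p = 0.424).

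Gadd45a (chr6:67035096-67037457, minus strand), a stress sensor that slows the G2 phase and aids DNA repair, was nearly flat. Its 8 pool libraries were at 43.0 to 49.6 CPM, with a median of 46.9, against 76.5, 44.3 and 48.0 CPM in scramble replicates 1, 2 and 3. Apart from scramble replicate 1 the groups overlapped. Its log2 fold change over all pools was −0.32 ± 0.13 (edgeR adjusted p = 0.145) and −0.05 ± 0.06 without scramble replicate 1 (adjusted p = 0.616). Pool 2 was above the other pools by 0.14 ± 0.05 in the fit without that library (adjusted p = 0.0165, edgeR).

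Zmat3 (chr3:32334792-32366014, minus strand) encodes a zinc finger protein that binds RNA and affects splicing. It was at 228 and 239 CPM in pool 1, 201 and 193 in pool 2, 239 and 248 in pool 3 and 226 and 225 in pool 4, against 126, 181 and 194 CPM in scramble. The libraries of pools 1, 3 and 4 were above every scramble library, and pool 2 overlapped scramble. Against scramble the 4 pools gave log2 0.43, 0.24, 0.47 and 0.38, with SE 0.17 each and edgeR adjusted p of at least 0.123. Zmat3 was higher in the 10-library fit in pools 1, 3 and 4 by 0.25, 0.29 and 0.21 (SE of at most 0.05, edgeR adjusted p of at most 0.00133), and pool 2 gave 0.06 ± 0.04 (adjusted p = 0.585).

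Phlda3 (chr1:135766119-135769136, plus strand) encodes a protein whose pleckstrin homology domain competes with that of Akt for membrane lipid. It was at 64.1 and 58.6 CPM in pool 1, 49.9 and 47.5 in pool 2, 70.8 and 74.2 in pool 3 and 56.9 and 56.6 in pool 4, against 131, 59.6 and 52.3 CPM in scramble replicates 1, 2 and 3. Pool 3 was the highest group and pool 2 the lowest, once scramble replicate 1 is set aside. No comparison with scramble passed with all libraries (edgeR adjusted p 0.517, 0.611, 0.682 and 0.431 in pools 1 to 4). Phlda3 was higher in the 10-library fit in pool 3 (log2 0.28 ± 0.06, edgeR adjusted p = 0.000461) and lower in pool 2 (−0.22 ± 0.06, adjusted p = 0.0427).

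Trp53inp1 (chr4:11156431-11174379, plus strand), a cofactor that promotes p53-dependent death and autophagy, was far lower in scramble replicate 1 than elsewhere. Its level was 504 and 455 CPM in pool 1, 511 and 525 in pool 2, 456 and 463 in pool 3 and 509 and 498 in pool 4, against 220.5, 461 and 514 CPM in scramble. All pool libraries lay near or within the range of scramble replicates 2 and 3. The log2 fold change over all pools was 0.25 ± 0.20 (edgeR adjusted p = 0.383) and changed sign without scramble replicate 1, to −0.05 ± 0.08 (adjusted p = 0.718). Pool 3 was then lower than scramble (log2 −0.17 ± 0.05, edgeR adjusted p = 0.00817), with overlapping groups. In CPM its mean was 94.4% of that in scramble replicates 2 and 3, a smaller difference than the TMM-scaled log2 value.

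Perp (chr10:18845020-18857073, plus strand), a membrane protein of desmosomes that takes part in p53-dependent death, was the scarcest member. It was at 9.73 and 9.38 CPM in pool 1, 9.52 and 9.14 in pool 2, 12.5 and 11.9 in pool 3 and 9.54 and 8.25 in pool 4, against 16.4, 10.1 and 9.81 CPM in scramble. Pool 3 was above the other pools and above scramble replicates 2 and 3. Its difference from the other pools was log2 0.36 ± 0.18 with all libraries (edgeR adjusted p = 0.458) and 0.35 ± 0.08 in the 10-library fit (adjusted p = 0.000831), and no comparison of Perp with scramble passed with or without scramble replicate 1.

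Setting all pools against scramble asked for a mean difference of the members, which need not be present in every pool. It called 0 of the 10 genes in edgeR, where it called 0.00715% of all genes, and 4 of the 10 had an unadjusted p below 0.05 (Cdkn1a, Sesn2, Gadd45a and Zmat3), against 28.9% of all genes. DESeq2 called 1 of the 10 and 8.44% of all genes. edgeR again called 0 members in the 10-library fit, and 0.469% of all genes, with 3 unadjusted p below 0.05 (Ccng1, Sesn2 and Zmat3) against 21.3% of all genes. Sesn2 was then the 1 member whose groups did not overlap, as was so for 18% of all genes. In this comparison differences between pools count as error. The mean of the 4 pools in the fit of 5 groups called Cdkn1a (log2 −0.41, edgeR adjusted p = 0.0346) and Sesn2 (log2 −0.78, adjusted p = 0.0244), and 6.37% of all genes. In the authors' deposited table of the same comparison, Zmat3 had an adjusted p of 0.0472 (log2 0.36) and was the 1 member below 0.05, as were 9.72% of the genes with an adjusted p there.

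Among the single pools, pool 3 held most of the calls. It also kept the most Akt1, at 79.3 and 81.7 CPM, against 52.7 to 63.9 CPM in pools 1, 2 and 4. Akt1 in pool 3 exceeded the other pools by log2 0.44 ± 0.11 with all libraries (edgeR adjusted p = 0.0873). In the 10-library fit the value was 0.44 ± 0.05 (edgeR adjusted p = 2.26e-07). The part of remaining Akt1 in these calls was not tested. With all libraries pool 3 called 3 members, Mdm2 up and Cdkn1a and Sesn2 down, against 11.2% of all genes. Pool 4 called 1 (2.57% of all genes), pool 1 called 0 (1.93%) and pool 2 called 0 (0.00707%), all in edgeR. An unadjusted p below 0.05 was found for 3 members in pool 1 (14.8% of all genes) and 0 members in pool 2 (4.62%). For pool 3 the 10-library fit called 8 members and 48.8% of all genes, with Trp53, Mdm2, Zmat3 and Phlda3 higher and Cdkn1a, Ccng1, Sesn2 and Trp53inp1 lower. Pools 1 and 4 each called the same 4 members, with Zmat3 higher and Cdkn1a, Ccng1 and Sesn2 lower, where they called 28.8% and 31% of all genes. Pool 2 called Phlda3 alone and 4.39% of all genes. In pool 3 the members' median log2 fold change was 0.06 without scramble replicate 1 and −0.04 with it, against 0.01 and −0.02 over all genes tested, so the set had no common direction.

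**Figure D4:**
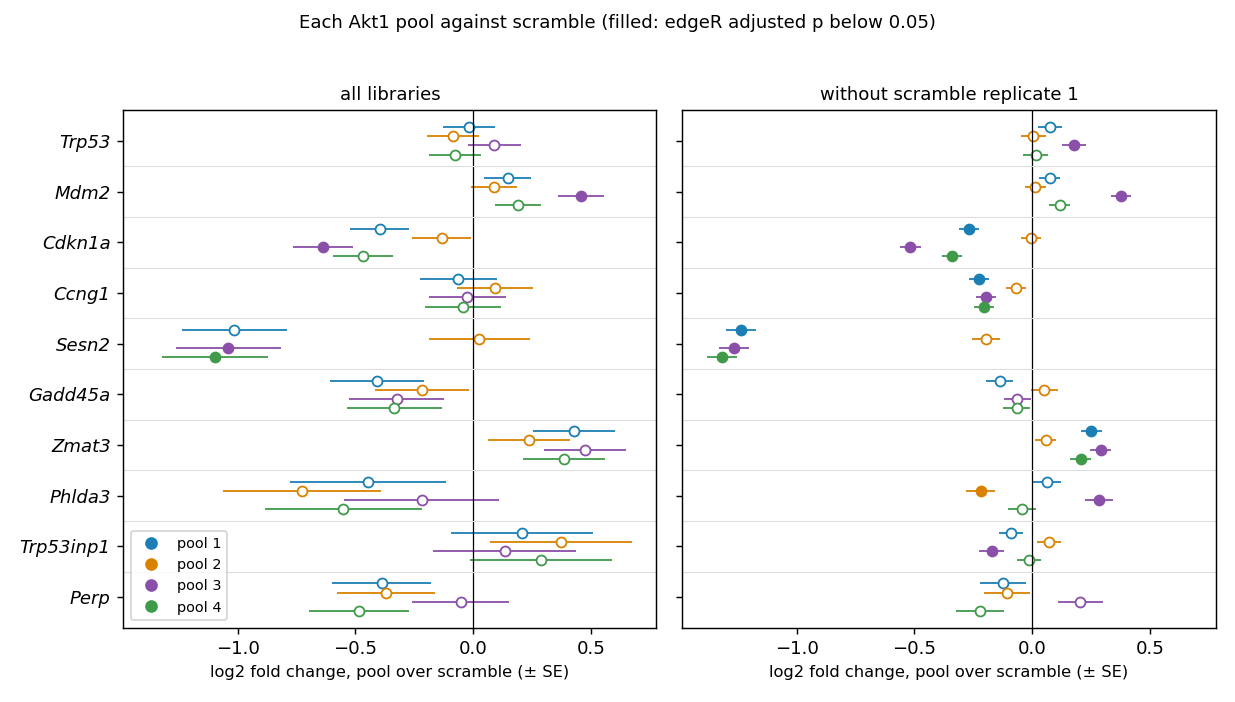
Log2 fold change of each member in each pool over scramble (± SE, from the edgeR fit of 5 groups), with all libraries at left and without scramble replicate 1 at right, where filled points passed at an adjusted p below 0.05. Sesn2 in pools 1, 3 and 4 is at −1.01 to −1.09 with all libraries and at −1.24 to −1.32 without scramble replicate 1, where the error bars are shorter.

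Whether a member depended on the pool was asked by an F test over the 4 pools. With all libraries it called 0 of the 10 genes in edgeR, against 2.46% of all genes, with Sesn2 nearest at an adjusted p of 0.0722, and 3 members had an unadjusted p below 0.05 (Mdm2, Cdkn1a and Sesn2), against 12% of all genes. DESeq2 called 1 and 7.58% of all genes. The 10-library fit called 9 of the 10, all but Gadd45a (edgeR adjusted p = 0.0536), where it called 42.8% of all genes. Pool 2 against the other pools then called 8 members and 43.7% of all genes, with Cdkn1a, Ccng1, Sesn2, Gadd45a and Trp53inp1 higher and Mdm2, Zmat3 and Phlda3 lower. Pool 3 against the other pools called 8 members and 39.6% of all genes in that fit, with Trp53, Mdm2, Zmat3, Phlda3 and Perp higher and Cdkn1a, Sesn2 and Trp53inp1 lower, and called 0 members and 1.83% of all genes with all libraries, where 2 members (Mdm2 and Cdkn1a) and 13.8% of all genes had an unadjusted p below 0.05. Pools 1 and 4 against the other pools called 0 members each with all libraries (0.0141% and 0% of all genes), and 0 members had an unadjusted p below 0.05 (1.42% and 1.36% of all genes), in edgeR. They called Sesn2 alone in the 10-library fit (1.73% and 1.49%), where the mean of the other pools includes pool 2.

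Further p53 targets, a list of 40 genes of which 38 were tested, were called in pool 3 more often upward than downward. With all libraries 5 rose and 2 fell relative to scramble in pool 3, and 4.33% of all genes were called higher and 6.84% lower. Those that rose were Btg2, Ckap2, Aen, Plk3 and Ercc5, and those that fell were Ei24 and Sesn1. Btg2, which encodes an antiproliferative protein, was at 259.6 ± 6.55, 216 ± 10.9, 306 ± 4.52 and 291 ± 10.4 CPM in pools 1, 2, 3 and 4 (SD, n = 2 in each), against 180.2 ± 4.65 CPM in scramble (SD, n = 3; pool 3 log2 0.70 ± 0.08, edgeR adjusted p = 0.00182). It also rose in pools 1 and 4 (log2 0.47 ± 0.08 and 0.65 ± 0.08, edgeR adjusted p = 0.0297 and 0.0073). Sulf2, the most abundant gene of the list, did not pass in pool 3 (log2 −0.11 ± 0.13, adjusted p = 0.603). Apart from Ei24, Sesn1 and Sulf2, these genes were picked out after their values were seen, as were Bax and Bbc3 among the same targets.

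In the 10-library fit, 19 of the 38 were higher and 5 lower in pool 3 than in scramble, where 22.7% of all genes were higher and 26.1% lower, with a median log2 fold change of 0.17, against 0.01 over all genes. In pool 2 against the other pools, 4 were higher and 18 lower, where 23.5% of all genes were higher and 20.3% lower, with a median of −0.08, against −0.01 over all genes. Bax and Bbc3, which promote release of cytochrome c from mitochondria, were among those higher in pool 3 (log2 0.45 ± 0.06 and 0.64 ± 0.09, edgeR adjusted p = 1.23e-06 and 2.9e-06). With all libraries their values were −0.02 ± 0.31 and 0.32 ± 0.24 (adjusted p = 0.975 and 0.435, edgeR), so both calls rest on leaving out scramble replicate 1.

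Cell cycle genes that are repressed downstream of p21, of which 30 were tested, were also called more often upward than downward in pool 3. With all libraries 5 were higher (Cdc25a, Bub1, Bub1b, Kif23 and Prc1) and 1 was lower (Mcm5) than in scramble, where 4.33% of all genes were called higher and 6.84% lower, and the median log2 fold change was 0.18, against −0.02 over all genes. Prc1, which bundles microtubules during cytokinesis, was at 174 ± 1.43, 139 ± 5.96, 227 ± 14.7 and 177 ± 0.843 CPM in pools 1, 2, 3 and 4 (SD, n = 2 in each), against 135 ± 10.5 CPM in scramble (SD, n = 3; pool 3 log2 0.68 ± 0.10, edgeR adjusted p = 0.00487). The called genes other than Prc1 were named after their values were seen. Mki67 and Top2a, the most abundant genes of the list, did not pass in pool 3 (log2 0.44 ± 0.29 and 0.17 ± 0.17, adjusted p = 0.358 and 0.522, edgeR). Mki67 was at 149 CPM in scramble replicate 1 and at 289.7 and 339.7 CPM in scramble replicates 2 and 3, and in the 10-library fit its value was 0.15 ± 0.05 (edgeR adjusted p = 0.0332). In the 10-library fit, 20 were higher and 3 lower in pool 3 than in scramble, and 2 were higher and 21 lower in pool 2 than in the other pools (medians 0.27 and −0.19, against 0.01 and −0.01 over all genes). The shares of all genes called were 22.7% higher and 26.1% lower in pool 3, and 23.5% higher and 20.3% lower in pool 2.

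**Figure D5:**
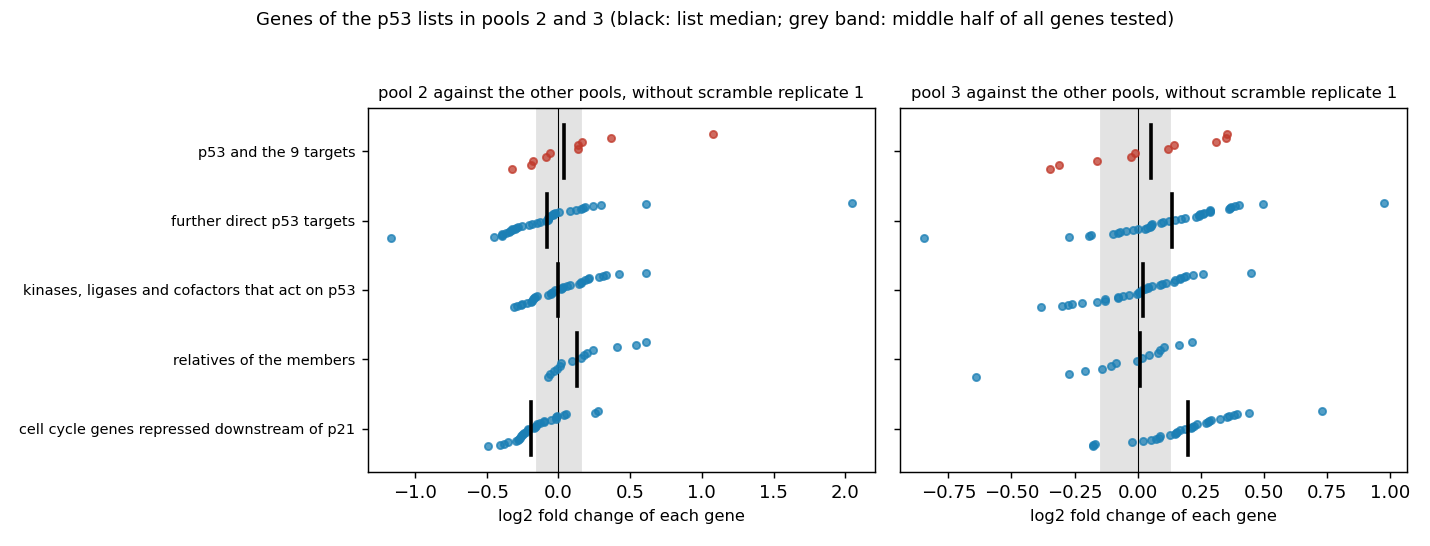
Log2 fold changes of the members (red) and of the genes of 4 lists (blue) in pools 2 and 3, each over the average of its 3 fellow pools, fitted without scramble replicate 1, with the list median in black and the interquartile range of all genes tested as a grey band, which shows the spread of single genes. The median of the cell cycle list is −0.19 in pool 2 and 0.20 in pool 3, and Ei24 is the far right point of the further targets in pool 2.

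The genes with the pattern most like Trp53 over the 11 libraries were Chaf1a, Nop9 and Psmf1, by the mean absolute difference of mean-centred log2 CPM (0.0256, 0.0273 and 0.0317, where Trp53 itself deviated from its own mean by 0.0832). For Mdm2 they were Zwilch, Spag5 and Cdca2 (0.0268, 0.0292 and 0.0363, where Mdm2 deviated by 0.121). For Cdkn1a they were Clcf1, Slc39a13 and Snap47 (0.0363, 0.0384 and 0.0392, where Cdkn1a deviated by 0.219). The likeness was ranked over 10733 genes and includes the shift of scramble replicate 1, which all these genes share.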

How the data were processed

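Libraries were prepared, per the labels, with a kit that keeps strand, from 1.3 µg of RNA, and sequenced as single 75-base reads. The authors deposited 1 file per library with raw read counts for 24490 gene symbols and 92 ERCC spike-ins, and the spike-ins, 0.268% to 0.788% of the counts, entered neither library sizes nor tests. Per the submitters' processing notes, the build was mm10 and featureCounts 1.5.0-p2, TopHat2, cutadapt 1.9.1, FastQC 0.11.5, bcl2fastq 2.15.0 and DESeq2 were used, with no settings given in the labels. A further deposited table compares the pools with scramble and gives a baseMean signal, a log2 fold change, a test score (stat) and p-values, per the file headers.

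Here CPM were computed per 1000000 reads in genes. edgeR 4.0.16 (R 4.3.3) was run on the counts with TMM scaling, filterByExpr and the two-sided quasi-likelihood F test, and a gene was called at a Benjamini-Hochberg adjusted p below 0.05 over all genes tested. All pools against scramble had 2 groups (13989 genes), so the 2 libraries of a pool count there as independent. Each pool against scramble, the 4-pool test and the contrasts of a pool with the average of its 3 fellow pools came from a single fit of 5 groups (14144 genes). Log2 fold changes rest on TMM-scaled counts, so they can differ in size from a ratio of CPM, and close to 0 in sign. Small calls can therefore depend on the scaling. Counting error is small at 23851293 to 32643158 reads, and same-group libraries differed by more than sampling noise (chi-square per degree of freedom at least 2.63). Alternatives were RLE and upper quartile scaling, other filters, DESeq2 1.42.0, limma-voom (limma 3.58.1), leaving out libraries, a replicate block and, added after seeing the data, an offset for transcript length. The code was tested on simulated data with the spread of all libraries. Where all pools were changed by log2 1, up or down, 81.1% of changed genes were called in all pools against scramble. Where pool 2 alone was changed by log2 1, 47.4% were called against scramble, 59.8% against the other pools and 36.1% in the 4-pool test. A gene that is not called can therefore still differ. Lengths and coordinates are those of GENCODE M21 (mm10).

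The members and gene lists were chosen with earlier results of these data known. The genes named were the members, Akt1, the most abundant gene of each list with up to 3 called over all pools or in the 4-pool test, or up to 2 more by abundance where none was called, and the 3 genes of most similar pattern to Trp53, Mdm2 and Cdkn1a. Other genes are marked as chosen after their values were seen.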

Additional observations from a re-analysis of the deposited data

Results flagged for a closer look

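Sesn2 was called in pool 2 against the other pools with all libraries. The 4-pool test of the same fit did not call it (edgeR adjusted p = 0.0722). The call in pool 2 was also lost on leaving out some single libraries (edgeR adjusted p up to 0.158). The Sesn2 level in pool 2 exceeded the mean of the other pools by 1.07 ± 0.18 on the log2 scale (SE, edgeR adjusted p = 0.0135), with 47.3 and 47.4 CPM in pool 2 and 21.8 to 25.4 CPM in the 6 libraries of pools 1, 3 and 4. The labels name 1 siRNA, number 7, that those 6 libraries received and pool 2 did not, if the pools of the titles match those of the protocol by number. Whether a single siRNA accounts for the difference was not tested.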

How the results depend on the processing

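Counts of members called depended most on scramble replicate 1. Leaving out 1 library at a time gave 0 to 2 called for all pools, 0 to 4 for pool 1, 0 to 1 for pool 2, 0 to 8 for pool 3, 0 to 4 for pool 4, 0 to 9 for the 4-pool test, and 0 to 1, 0 to 8, 0 to 8 and 0 to 1 for pools 1, 2, 3 and 4 against the other pools, where the highest value came without scramble replicate 1 except for all pools (2 without scramble replicate 3, Cdkn1a and Zmat3). DESeq2 called 1 for all pools, 1 for pool 1, 2 for pool 4, 1 in the 4-pool test, and 2 and 1 for pools 2 and 3 against the others. For pool 4, limma-voom and no filter called 0. Over all pools, the mean of pools in the 5-group fit and leaving out both pool 2 libraries called 2 each. The 8 pool libraries alone called 10 in the 4-pool test and 1, 9, 8 and 1 for pools 1 to 4 against the others. The length offset called 2 for pools 1 and 4, 2 in the 4-pool test and 2 and 3 for pools 2 and 3 against the others. Without scramble replicate 1 it called 5, 1, 8 and 5 for pools 1 to 4, 10 in the 4-pool test and 1, 8, 8 and 1 against the others.

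Same-numbered libraries showed little shared deviation from their group means, with correlations from −0.05 to 0.08 over 20 pairs. The replicates of a pool deviate by equal and opposite amounts, so every pool-with-pool value recurs under the other replicate number. The 20 pairs are therefore not independent. Pairs with scramble carry the shift of scramble replicate 1 and say little about pairing. Pairing by replicate number is thus not excluded. With the replicate block, members called were 1 for all pools, 1 for pool 3 and 0 for pool 4. With the block and without scramble replicate 1 they were 4, 1, 6 and 4 for pools 1 to 4, 10 in the 4-pool test and 1, 9, 8 and 1 against the others.

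Fold changes of 5 members over all pools changed sign, Phlda3 (−0.48), Gadd45a (−0.32) and Trp53inp1 (0.25) among them. Trp53 (−0.02) gave 0.14 with the length offset, 0.069 with it and 0.0045 with the block when scramble replicate 1 was left out, and −0.11 to 0.071 without single libraries. Ccng1 (−0.01) gave 0.0035 with upper quartile scaling, 0.0017 with no filter, 0.0098 with limma-voom and 0.11 with the block, and −0.17 to 0.10 without single libraries. Without scramble replicate 1, Gadd45a gave 0.019 with the block, and Phlda3 and Trp53inp1 gave 0.022 and −0.023 with the length offset. Without single libraries Phlda3 ran from −0.70 to 0.033 and Trp53inp1 from −0.049 to 0.48. The cause was not tested. Mdm2, Cdkn1a and Sesn2 in pool 3 and Sesn2 in pool 4 and in pool 2 against the others kept their sign in every alternative run.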

Other observations

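Genes that act on p53 showed no common direction. Of 32 tested kinases, ligases and cofactors, 3 rose and 2 fell in pool 3 relative to scramble with all libraries, and 11.2% of all genes were called. Ppm1d, the phosphatase Wip1, which is itself a p53 target and dampens p53, averaged 32.8 ± 1.13 CPM in pool 3 (SD, n = 2) and 23.7 ± 1.03 CPM in pool 2 (SD, n = 2), against 21.5 ± 1.42 CPM in scramble (SD, n = 3; pool 3 log2 0.54 ± 0.09, edgeR adjusted p = 0.00668). Ppp1r13l, which encodes the p53 inhibitor iASPP, averaged 14.0 ± 1.10 CPM in pool 3 and 22.4 ± 1.82 CPM in pool 2, against 26.6 ± 2.80 CPM in scramble (pool 3 log2 −0.99 ± 0.13, adjusted p = 0.00267, edgeR), and it also fell in pools 1 and 4 (log2 −0.74 and −0.83, adjusted p = 0.0281 and 0.0164). Chek1 and Ing1 rose and Rchy1 fell. These genes were named after their values were seen. Huwe1, Ep300 and Usp7, the most abundant genes of the list, passed no comparison with all libraries (log2 0.37, 0.30 and 0.19 over all pools, edgeR adjusted p of at least 0.254). All were low in scramble replicate 1, with Huwe1 at 169 CPM there and at 550.4 and 579 CPM in scramble replicates 2 and 3. Without that library they gave −0.02, −0.13 and 0.02 (edgeR adjusted p of at least 0.255), so the sign of Huwe1 and Ep300 changed.

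Of 14 tested relatives of the members, Sesn1 was the 1 gene called in pool 3, in pool 2 against the other pools and in the 4-pool test (edgeR adjusted p = 0.0489), which called 11.2%, 5.25% and 2.46% of all genes. Trp53inp2, the most abundant, averaged 258 ± 6.70 CPM over the pools (SD, n = 8), against 256 ± 30.8 CPM in scramble (SD, n = 3; log2 −0.03 ± 0.08, adjusted p = 0.807, edgeR).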
